A study of Mus musculus with 8 samples.

Results

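The endothelial identity genes are 10 genes whose products define the cells that line blood vessels, namely Pecam1, Cdh5, Kdr, Flt1, Tek, Tie1, Cldn5, Vwf, Emcn and Nos3. They were chosen by symbol, and all 10 were found among the 55401 genes of the table. They were measured by bulk RNA-seq of whole tibialis anterior (TA) muscles from male mice, 4 WT mice of the C57/Bl6 strain and 4 mdx5cv mice, a model of Duchenne muscular dystrophy on the same background with a mutation in Dmd, the dystrophin gene. All mice were 6 mo old and neither group has a treatment in the labels.

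Endothelial cells form the inner wall of every vessel, and in skeletal muscle most of them belong to capillaries that run along the fibers. They hold to each other through VE-cadherin (Cdh5), PECAM-1 (Pecam1) and claudin-5 (Cldn5), and they respond to vascular endothelial growth factors through VEGFR2 (Kdr) and VEGFR1 (Flt1) and to angiopoietins through TIE2 (Tek), with TIE1 (Tie1) as its partner. They also store von Willebrand factor (Vwf), carry endomucin (Emcn) on their surface and make nitric oxide with endothelial nitric oxide synthase (Nos3).

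Of these 10 genes, 9 were lower in mdx5cv than in WT muscle at an adjusted p under 0.05, none was higher, and Tie1 was not called. With the libraries scaled to equal totals in place of the authors' size factors, 4 of the 10 were called lower, and the calls of Cdh5, Kdr, Cldn5, Emcn and Nos3 were lost. Across all 13677 genes tested, 20.1% were called lower and 20.9% higher. The mdx5cv mean ranged from 49.9% of the WT mean for Flt1 to 73.3% for Tie1, with a median of 59.5% over the 10 genes. In 8 of the 10 genes all 4 mdx5cv muscles lay below all 4 WT muscles, against 19.8% of all genes tested. The median log2 fold change of the 10 genes was -0.73, that of all genes tested was 0.00, and 7.22% of all genes tested had a lower value than -0.73. In RNA from whole muscle, fewer endothelial cells, less of each RNA per cell and more RNA from other cells cannot be told apart.

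The values are normalized counts, which the authors made by dividing the reads of each muscle by a size factor. Fold changes are differences of log2(normalized count + 1), mdx5cv minus WT, tested with limma and adjusted by the Benjamini-Hochberg method over all 13677 genes. The WT muscles had 13862559 to 14921057 reads and size factors of 0.873 to 0.944, and the mdx5cv muscles 13175524 to 14502624 reads and size factors of 1.06 to 1.25. Mitochondrially encoded RNA took 30.0% to 38.7% of the reads in WT and 25.3% to 32.1% in mdx5cv. Dmd, the gene mutated in mdx5cv, averaged 6954 ± 857 normalized counts in WT against 3964 ± 388 in mdx5cv (SD, n = 4), which gave a log2 fold change of -0.81 with a standard error of 0.12 (adjusted p = 0.000177). The labels do not say that the 4 muscles of a group came from separate cages or days, so the p-values cover the spread between these 8 muscles.

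RefSeq promoter sequences on GRCm38.p6 were matched for 6 of the 10 genes, namely Kdr, Flt1, Tek, Tie1, Cldn5 and Emcn. Pecam1, Cdh5, Vwf and Nos3 are named only. The windows of the receptor genes Kdr, Flt1 and Tek are shown because these receptors include the 2 largest fold changes of the group, together with that of the junction gene Cldn5. Each window ends at the base before the first annotated start of the gene. Capitals mark GGAA or its reverse complement TTCC, the core of the sites bound by ETS factors such as Erg and Fli1, which are known regulators of endothelial genes. The Kdr window is chr5:75978459-75978705 on the minus strand, the Flt1 window chr5:147726012-147726261 on the minus strand, the Tek window chr4:94739039-94739288 on the plus strand and the Cldn5 window chr16:18776597-18776846 on the plus strand, each read 5′ to 3′.
Kdr: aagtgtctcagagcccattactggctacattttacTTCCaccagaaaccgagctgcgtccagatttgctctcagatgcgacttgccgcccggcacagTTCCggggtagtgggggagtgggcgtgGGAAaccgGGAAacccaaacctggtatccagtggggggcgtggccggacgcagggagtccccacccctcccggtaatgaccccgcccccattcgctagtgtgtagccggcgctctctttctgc
Flt1: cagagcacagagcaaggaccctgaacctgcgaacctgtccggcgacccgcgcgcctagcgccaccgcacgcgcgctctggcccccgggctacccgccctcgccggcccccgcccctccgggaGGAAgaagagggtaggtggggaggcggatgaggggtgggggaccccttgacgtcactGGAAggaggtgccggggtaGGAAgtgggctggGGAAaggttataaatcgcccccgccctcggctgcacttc
Tek: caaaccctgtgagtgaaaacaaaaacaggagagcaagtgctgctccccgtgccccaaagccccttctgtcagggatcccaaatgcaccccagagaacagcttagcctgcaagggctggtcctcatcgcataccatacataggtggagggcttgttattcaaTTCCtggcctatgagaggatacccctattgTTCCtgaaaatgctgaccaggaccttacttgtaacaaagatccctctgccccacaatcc
Cldn5: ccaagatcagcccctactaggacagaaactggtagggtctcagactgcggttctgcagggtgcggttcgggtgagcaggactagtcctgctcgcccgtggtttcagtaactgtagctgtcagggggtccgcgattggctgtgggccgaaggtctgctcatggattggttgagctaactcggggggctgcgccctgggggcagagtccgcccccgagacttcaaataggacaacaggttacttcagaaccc

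The Kdr window held 4 copies of the core, the Flt1 window 4, the Tek window 2 and the Cldn5 window 0, with both strands searched. The Emcn window held 4. A core this short was found in 93.45% of the 32851 RefSeq promoter entries searched over the 250 bases before the start. The longer form CCGGAA, which contains the core, was in the Kdr window once and in 12.03% of all promoters. GATAA, a form of the GATA factor site, was in none of the 5 windows and in 22.58% of all promoters. CCCGCCC, which Sp1-like factors bind, was once in the Kdr window and 3 times in the Flt1 window, and in 23.4% of all promoters. The matches describe the letters of these windows. Flt1, with 70.4% G and C, and Emcn, with 40.59%, were the ends of the range of these 5 windows.

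The VEGF receptors were both lower in mdx5cv. Gene positions are given on GRCm38 from GENCODE M21. Flt1 (chr5:147561604-147726011, minus strand) encodes VEGFR1, which binds VEGF-A tightly and signals weakly. Its normalized counts were 1088, 1089, 1203 and 1024 in the 4 WT muscles and 483, 682, 565 and 467 in the 4 mdx5cv muscles. The groups lay far apart, with the highest mdx5cv muscle below the lowest WT muscle. The means were 1101 ± 74.4 and 549 ± 98.3 (SD, n = 4), which gave a log2 fold change of -1.02 with a standard error of 0.12 (adjusted p = 4.25e-05). Flt1 was the only gene of the group with a log2 fold change of -1 or less, a size that 3.27% of all genes tested passed with an adjusted p under 0.05. Its value was -0.97 without WT muscle 3, -0.96 without mdx5cv muscle 1, -0.94 without mdx5cv muscle 4, -0.999 in edgeR and -0.66 with all muscles scaled to equal totals.

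Kdr (chr5:75932827-75978458, minus strand) encodes VEGFR2, the main signaling receptor for VEGF-A. Normalized Kdr counts were 893, 609, 603 and 744 in WT and 404, 430, 538 and 418 in mdx5cv. The WT muscles were spread more widely than the mdx5cv muscles, and the groups did not overlap. The means were 712 ± 137 and 447 ± 61.1 (SD, n = 4), and the log2 fold change was -0.66 with a standard error of 0.14 (adjusted p = 0.00239). The log2 ratio of Kdr to Flt1 within a muscle averaged -0.65 ± 0.33 in WT against -0.29 ± 0.26 in mdx5cv (SD, n = 4). The difference of 0.36 did not pass an exact two-sided permutation test (p = 0.143, adjusted p = 0.286 over 6 ratios).

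Tek (chr4:94739289-94874976, plus strand) encodes TIE2, the receptor of the angiopoietins. In the WT muscles the counts were 380, 414, 299 and 349, and in the mdx5cv muscles 177, 207, 218 and 175. Every mdx5cv muscle was below every WT muscle. Tek fell from 360 ± 49.0 to 194 ± 21.5 (SD, n = 4), which gave a log2 fold change of -0.88 with a standard error of 0.13 (adjusted p = 0.000164). Only Flt1 had a larger change among the 10 genes.

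Tie1 (chr4:118471191-118490061, minus strand) encodes the orphan receptor that pairs with TIE2. Its normalized counts were 402, 231, 346 and 393 in WT and 214, 270, 286 and 237 in mdx5cv. WT muscle 2 was as low as the mdx5cv muscles while the other WT muscles were above all of them. The means were 343 ± 78.5 and 252 ± 32.6 (SD, n = 4), and the log2 fold change of -0.42 missed the threshold (standard error 0.17, adjusted p = 0.0605). Tie1 in WT muscle 2 rested on 211 reads, with an exact 95% Poisson interval from 201 to 265 normalized counts, which covers counting error only. Without WT muscle 2 the log2 fold change was -0.60 (adjusted p = 0.00267), and edgeR on the recovered reads also called Tie1 lower (adjusted p = 0.0455). With equal totals it was -0.07 (limma, adjusted p = 0.783), and without mitochondrial genes in the totals -0.21 (adjusted p = 0.337). Tie1 was called in 3 of 21 fits.

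The log2 ratio of Tek to Tie1 showed the same muscle. It was 0.83 in WT muscle 2, between -0.21 and -0.08 in the other WT muscles and between -0.43 and -0.27 in the mdx5cv muscles. All 4 mdx5cv ratios were below all 4 WT ratios, a difference of -0.46 (exact two-sided permutation p = 0.0286, the smallest that 4 against 4 allows). After adjustment over the 6 ratios the p was 0.171, and without WT muscle 2 the difference was -0.22. WT muscle 2 also had the highest summed level of fibroblast markers in WT, 4347 normalized counts per kilobase against 2790 to 2870 in the others, and the part of this in the ratio was not tested.

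**Figure D1:**
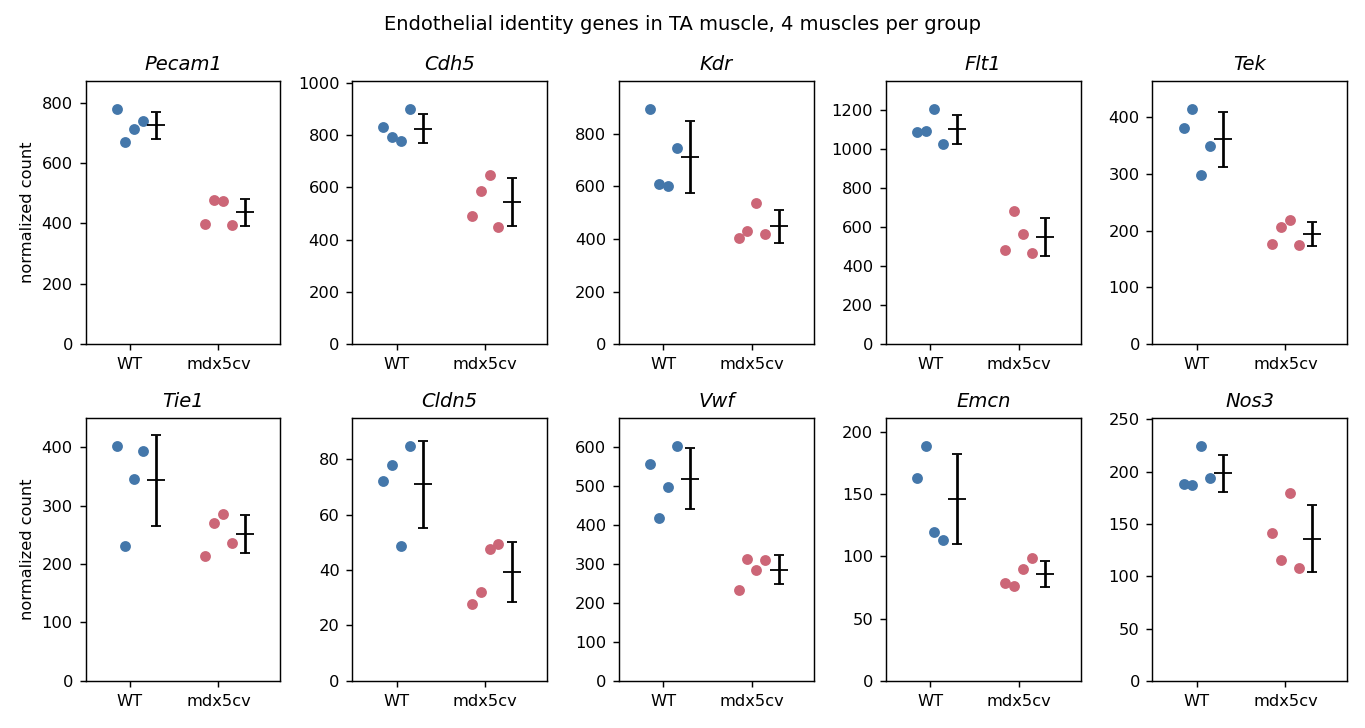
Normalized counts (y axis, each panel from 0 on its own scale) of the 10 endothelial identity genes in 4 WT (blue) and 4 mdx5cv (red) TA muscles, with points for muscles in replicate order from left to right and black bars for mean ± SD. In 8 panels the mdx5cv points lie below all WT points; in Tie1 and Cldn5 a WT point falls among them.

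The junction genes fell as well. Cdh5 (chr8:104101625-104144511, plus strand) encodes VE-cadherin, the adhesion molecule of endothelial adherens junctions. Normalized Cdh5 counts were 831, 792, 779 and 899 in WT and 492, 588, 648 and 448 in mdx5cv. The groups did not overlap. Cdh5 went from 825 ± 53.9 to 544 ± 90.7 (SD, n = 4), which gave a log2 fold change of -0.61 with a standard error of 0.12 (adjusted p = 0.00152).

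Pecam1 (chr11:106654217-106750628, minus strand) encodes PECAM-1, or CD31, which endothelial cells share with platelets and many leukocytes. The WT muscles had Pecam1 counts of 778, 671, 713 and 738, and the mdx5cv muscles 399, 476, 474 and 396. Both groups were narrow and well apart. The means were 725 ± 44.8 and 436 ± 44.6 (SD, n = 4), a log2 fold change of -0.73 with the smallest standard error of the 10 genes (0.10, adjusted p = 0.000138). The log2 ratio of Pecam1 to Cdh5 was -0.19 ± 0.09 in WT against -0.31 ± 0.11 in mdx5cv (SD, n = 4), a difference of -0.12 that was not called (exact permutation p = 0.143, adjusted p = 0.286) and was -0.07 without mdx5cv muscle 3 and -0.17 without mdx5cv muscle 4.

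Cldn5 (chr16:18776847-18778262, plus strand) encodes claudin-5, a tight junction protein of endothelial cells. Its normalized counts were 72.2, 77.9, 48.6 and 84.7 in WT and 27.8, 32.1, 47.7 and 49.5 in mdx5cv. WT muscle 3 fell between the 2 highest mdx5cv muscles, so the groups overlapped. Cldn5 had the fewest reads of the 10 genes, 30 to 80 per muscle, and the exact 95% Poisson interval of WT muscle 3 ran from 35.3 to 65.3 normalized counts. The means were 70.9 ± 15.7 and 39.3 ± 10.96 (SD, n = 4), and the log2 fold change of -0.85 was called with the widest standard error of the group (0.23, adjusted p = 0.0109). Cldn5 relative to Cdh5, as a log2 ratio, differed by -0.23 between the groups, within the spread of the muscles (exact permutation p = 0.429, adjusted p = 0.643). This difference was -0.45 without mdx5cv muscle 4 and -0.11 without mdx5cv muscle 2.

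The surface and secreted products and the nitric oxide synthase were lower too. Vwf (chr6:125546774-125686679, plus strand) encodes von Willebrand factor, which captures platelets at sites of injury and is stored in endothelial cells and platelets. The Vwf counts were 556, 418, 498 and 602 in WT and 233, 313, 284 and 308 in mdx5cv. The groups did not overlap. Vwf fell from 518 ± 79.3 to 284 ± 37.0 (SD, n = 4), which gave a log2 fold change of -0.86 with a standard error of 0.14 (adjusted p = 0.000306).

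Emcn (chr3:137341067-137432185, plus strand) encodes endomucin, a sialomucin found mainly on capillary and venous endothelium. Emcn was counted at 163, 189, 119 and 113 in WT and 78.7, 76.4, 90.0 and 98.3 in mdx5cv. WT muscles 3 and 4 lay close above the highest mdx5cv muscle. The means were 146 ± 35.9 and 85.9 ± 10.2 (SD, n = 4), which gave a log2 fold change of -0.73 with a standard error of 0.18 (adjusted p = 0.00486). Vwf relative to Emcn had a log2 ratio of 1.84 ± 0.53 in WT against 1.71 ± 0.21 in mdx5cv (SD, n = 4), and this difference of -0.13 turned to 0.06 without WT muscle 4 (exact permutation p = 0.657 with all 8 muscles, adjusted p = 0.743).

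Nos3 (chr5:24364810-24384474, plus strand) encodes the synthase that makes nitric oxide in the endothelium, and it overlaps Atg9b on the opposite strand. Nos3 counts were 188, 188, 224 and 194 in WT and 142, 115, 179 and 108 in mdx5cv. The highest mdx5cv muscle was just under the lowest WT muscle. The means were 198 ± 17.6 and 136 ± 32.3 (SD, n = 4), and the log2 fold change was -0.57 with a standard error of 0.16 (adjusted p = 0.0119). Atg9b itself averaged 2.19 normalized counts in WT and 6.18 in mdx5cv, and reads of the pair cannot be told apart unless the counting used the strand, which is not stated. Nos3 relative to Cdh5 differed by 0.05 (exact permutation p = 0.743, adjusted p = 0.743) and changed sign when WT muscle 4, mdx5cv muscle 1 or mdx5cv muscle 3 was left out.

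**Figure D2:**
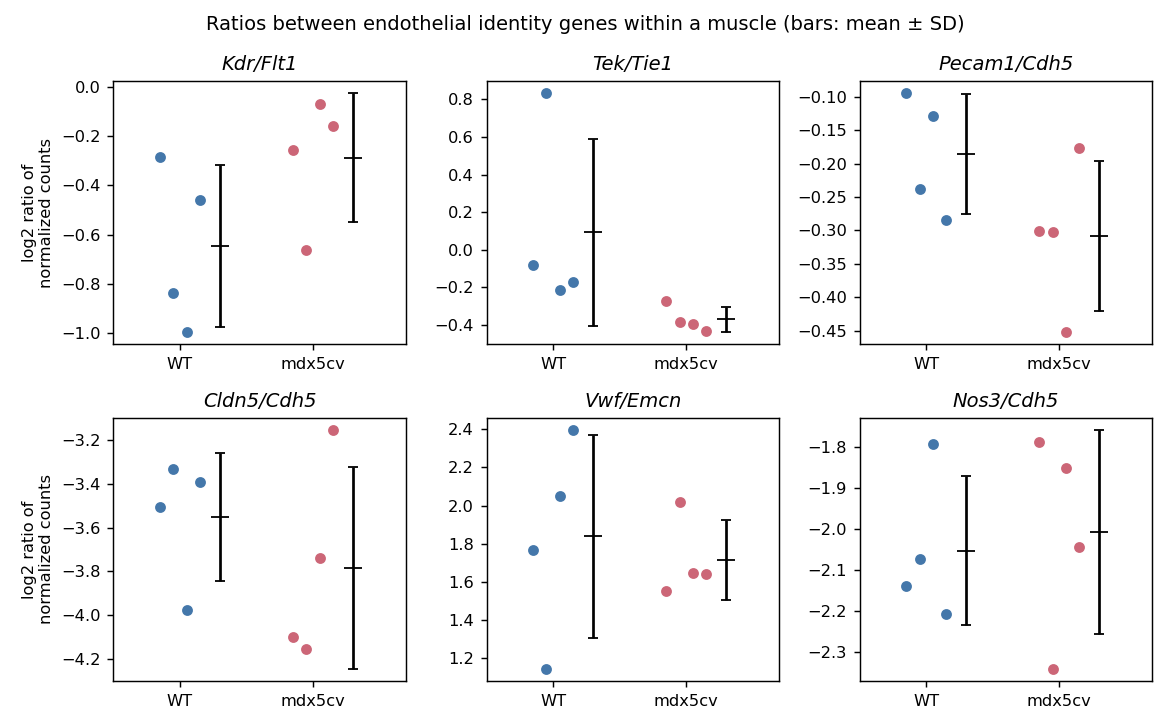
Log2 ratios of normalized counts (y axis, each panel on its own scale that does not start at 0) of 6 pairs of endothelial identity genes within each WT (blue) and mdx5cv (red) muscle, with black bars for mean ± SD. The ratios overlap between the groups in all pairs but Tek to Tie1, where 1 WT muscle stands at 0.83; none of the 6 differences passed the adjusted test.

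The 10 genes kept much the same order of level within each group. Levels were compared between genes as normalized counts per kilobase of merged exons. The merged length takes in every annotated exon of a gene, 16064 bases for Vwf and 13504 for Flt1. A shorter main transcript would raise the level per kilobase, and the order was not checked with other lengths. In WT, Cdh5 was highest at 196 ± 12.8, followed by Pecam1 at 116 ± 7.20 (SD, n = 4), and the ranges of these 2 genes did not overlap with each other or with the next gene. Flt1, at 81.5 ± 5.51, Kdr, at 78.8 ± 15.2, Tek, at 76.5 ± 10.4, Tie1, at 69.8 ± 16.0, Cldn5, at 50.0 ± 11.1, and Nos3, at 48.0 ± 4.25, followed with neighbours that overlapped. Vwf, at 32.3 ± 4.94, and Emcn, at 27.0 ± 6.64, were lowest and overlapped each other.

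In mdx5cv, Cdh5 at 129 ± 21.6 and Pecam1 at 70.1 ± 7.16 per kilobase again led without overlap (SD, n = 4). Tie1 came next at 51.2 ± 6.62, then Kdr at 49.5 ± 6.76, Tek at 41.2 ± 4.56, Flt1 at 40.7 ± 7.28, Nos3 at 32.9 ± 7.81 and Cldn5 at 27.7 ± 7.74, each overlapping the next. Vwf at 17.7 ± 2.30 and Emcn at 15.9 ± 1.89 were again lowest. By merged exon length Flt1 thus stood first among the receptors in WT and last in mdx5cv. The receptors next to each other in either order did not differ beyond their spread.

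Summed over the 10 genes, the level per kilobase was 826, 740, 731 and 810 in the WT muscles and 426, 497, 548 and 435 in the mdx5cv muscles. As a share of all reads, which uses no size factor, the 10 genes took 0.0286% to 0.0350% in WT and 0.0217% to 0.0257% in mdx5cv, again without overlap. Among the mdx5cv muscles, muscle 3 was highest for 5 of the genes (Cdh5, Kdr, Tek, Tie1 and Nos3), muscle 4 was lowest for 5 (Pecam1, Cdh5, Flt1, Tek and Nos3) and muscle 1 was lowest for 4 (Kdr, Tie1, Cldn5 and Vwf). The deviations of a gene from its group means were set against the mean deviation of the other 9 genes over the 8 muscles, as a description. Pearson's r was 0.82 for Kdr, 0.78 for Pecam1 and 0.72 for Cdh5, between 0.35 and 0.55 for Tek, Tie1, Vwf and Cldn5, and 0.14 for Flt1, 0.09 for Nos3 and -0.08 for Emcn. All of these points share the same 8 libraries and size factors.

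The deviations of 7641 genes with a mean of at least 100, a number that includes members, were set against the mean deviation of the 10 genes. Members aside, those most like it over the 8 muscles were Aqp7 (r = 0.98), Atg2b (0.98), Vegfb (0.96), Aar2 (0.96) and Pno1 (0.94). Being the highest of so many genes over 8 muscles, these r values are high by selection. Aqp7, an aquaglyceroporin that is also in the list of capillary genes, was lower in mdx5cv, with 141 ± 34.0 and 76.5 ± 23.2 normalized counts (SD, n = 4, log2 fold change -0.89, adjusted p = 0.00677, but 0.0619 with equal totals). Pno1 was also lower (log2 fold change -0.62, adjusted p = 0.00118, but 0.123 with equal totals), whereas Atg2b (0.01, adjusted p = 0.964), Vegfb (-0.13, adjusted p = 0.559) and Aar2 (-0.26, adjusted p = 0.0641) were not called.

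The size of the falls depended on the scaling of the libraries. When all muscles were instead brought to equal totals, the median over all genes tested moved from 0.00 to 0.36 on the log2 scale, and that of the 10 endothelial genes from -0.73 to -0.38. With mitochondrially encoded genes left out of the totals, these medians were 0.21 and -0.52. Relative to the median of all genes, the median of the 10 genes was -0.74 with the size factors, -0.73 with equal totals and -0.74 without mitochondrial genes. A scaling shifts all genes by nearly the same amount, so this distance is kept by construction and tests nothing. All 10 fold changes stayed negative under each scaling tried. Pecam1, Flt1, Tek and Vwf were still called lower with equal totals, when 6.00% of all genes were called lower and 39.8% higher. Without mitochondrial genes in the totals 7 were called lower, against 10.2% of all genes, and Cldn5, Nos3 and Tie1 were not.

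**Figure D3:**
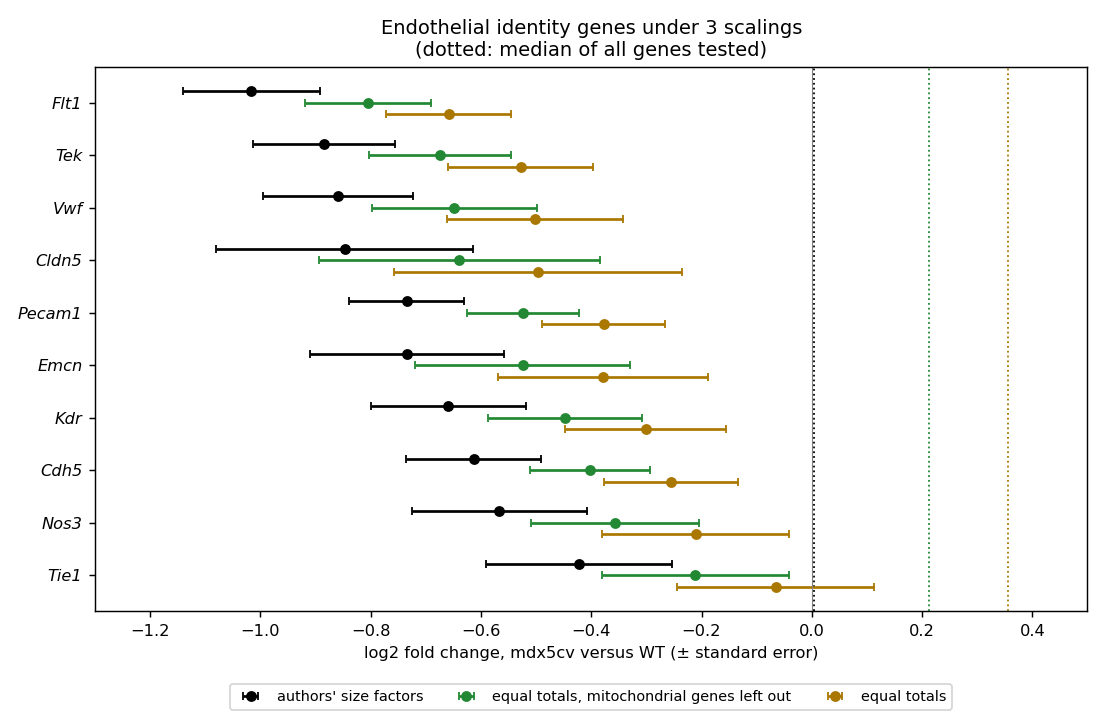
Log2 fold changes, mdx5cv versus WT, with standard errors (x axis) of the 10 endothelial identity genes (y axis) under the authors' size factors (black), equal totals without mitochondrial genes (green) and equal totals (brown), with dotted lines at the median of all genes tested under each, 0.00, 0.21 and 0.36. Every point lies below 0 and to the left of the dotted line of its own scaling. A scaling moves the points and its dotted line by nearly the same amount.

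Genes that work with the 10 were listed by role, and 125 of the 142 different genes in these 8 lists passed the filter on low counts. Of these, 46 were lower, 21 higher and 58 not called. Of all genes tested, 20.1% were called lower and 20.9% higher, and with equal totals 6.00% and 39.8%. The lists overlap each other, and the capillary and the venous lists include Kdr and Vwf. They were compiled from general knowledge of these genes but with earlier results of these data known, so their counts are a description. Several of their genes are also made by other cells of the muscle.

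Of the 6 tested ligands of the endothelial receptors, 2 were lower and none was higher, against 20.1% and 20.9% of all genes tested. Vegfa, which signals through Kdr and Flt1, had 2070 ± 202 normalized counts in WT against 1452 ± 231 in mdx5cv (SD, n = 4, log2 fold change -0.52, adjusted p = 0.00576). Angpt1, which activates TIE2, had 199 ± 39.1 and 129 ± 36.3 (log2 fold change -0.65, adjusted p = 0.0207). With equal totals neither was called. Angpt2 (log2 fold change -0.40), Vegfc (-0.40), Vegfd (-0.29) and Vegfb (-0.13) were not called, and the last 2 were above 0 with equal totals. Pgf and Angpt4, with at most 18 and 2 reads in a muscle, were not tested.

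Among 24 tested co-receptors and signaling partners of the endothelial genes, 7 were lower and 4 higher, and the median of -0.17 was 0.19 with equal totals. The share of lower calls was 29.2%, against 20.1% of all genes tested. With equal totals 5 were lower and 8 higher. The falls were led by Stab2, a scavenger receptor that takes up circulating von Willebrand factor (log2 fold change -1.18, adjusted p = 0.00012), and Prkg1, a kinase activated by nitric oxide signaling (-1.15, adjusted p = 0.00069). Nostrin, which encodes a trafficking protein of NOS3, was higher (1.24, adjusted p = 0.0268), as was Angptl1, an angiopoietin-like gene (0.91, adjusted p = 0.00372).

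Other endothelial surface and junction genes were mostly lower. Of 30 tested, 18 were lower and 2 higher, the median was -0.62, and 12 were lower and 3 higher with equal totals. Procr, the endothelial protein C receptor, fell from 41.6 ± 10.3 to 15.4 ± 2.66 normalized counts (SD, n = 4, log2 fold change -1.36, adjusted p = 0.000684). Adgrf5, an adhesion receptor of endothelial cells, fell from 1989 ± 268 to 908 ± 151 (log2 fold change -1.14, adjusted p = 3.60e-05). The 2 rises were those of Cdh13, which encodes T-cadherin (0.35, adjusted p = 0.00617), and Thbd, which encodes thrombomodulin (0.34, adjusted p = 0.0469). The Thbd call was lost with centring on the median (adjusted p = 0.137).

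Capillary genes gave the lowest median of the 8 lists, -0.90. Of 16 tested, 12 were lower and none was higher, and with equal totals 8 were lower and none higher. Timp4, a metalloproteinase inhibitor, fell from 408 ± 132 to 131 ± 77.0 (SD, n = 4, log2 fold change -1.76, adjusted p = 0.00105). Gpihbp1, which carries lipoprotein lipase across capillary endothelium, fell from 236 ± 56.4 to 101 ± 27.5 (log2 fold change -1.22, adjusted p = 0.000437). Cd36, a fatty acid transporter made by capillaries and by fibers, had a log2 fold change of -1.09 (adjusted p = 0.000231).

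Arterial genes were mixed, with 3 lower and 2 higher of 13 and a median of -0.28 that was 0.07 with equal totals. The share of lower calls, 23.1%, was near the 20.1% of all genes tested. Sema3g, a semaphorin of arterial endothelium (log2 fold change -1.03, adjusted p = 0.00318), and Fbln5, an elastic fiber protein (-0.60, adjusted p = 0.00515), were lower, the latter not with equal totals. Mgp, matrix Gla protein (1.21, adjusted p = 0.0014), and Unc5b, a netrin receptor (0.46, adjusted p = 0.0441), were higher, the latter not with centring on the median (adjusted p = 0.0983).

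Venous and activated endothelial genes were higher in 6 of 14 and lower in 2, Lrg1 (log2 fold change -1.36, adjusted p = 0.000792) and Vwf, with a median of 0.10. Of all genes tested, 20.9% were called higher and 20.1% lower. With equal totals 8 of the 14 were higher, against 39.8% of all genes. The rises were led by Bgn, a matrix proteoglycan also made by fibroblasts (2.20, adjusted p = 4.01e-06), and Icam1, an adhesion molecule for leukocytes that leukocytes also carry (2.04, adjusted p = 6.05e-05). The other called rises were those of Apoe (1.88), Vcam1 (1.57), Mctp1 (1.03) and Cpe (0.78). The highest level was that of Il6st, the shared receptor subunit of the interleukin-6 family, which was not called (-0.05, and 0.31 with equal totals). Nr2f2 (0.24), Plvap (-0.15), Tshz2 (-0.29), Ephb4 (-0.32) and Selp (-0.90) were not called either.

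Genes of sprouting endothelium were higher in 7 of 13, with a median of 0.63, against 20.9% of all genes tested. With equal totals 9 were higher, against 39.8% of all genes. Cxcr4, a chemokine receptor of tip cells and leukocytes, rose from 31.2 ± 5.89 to 141 ± 41.0 normalized counts (SD, n = 4, log2 fold change 2.11, adjusted p = 1.15e-05). Nid2 (1.01, adjusted p = 7.82e-05) and Col4a1 (0.64, adjusted p = 0.00478), which encode basement membrane proteins that other cells make too, also rose. So did Trp53i11 (0.92, adjusted p = 0.000473), Aplnr (0.81, adjusted p = 0.00116), Col4a2 (0.63, adjusted p = 0.00267) and Unc5b (0.46, adjusted p = 0.0441). Mcam was the 1 lower gene (-0.52, adjusted p = 0.00806), and its call was lost with equal totals. The other 5 tested genes were not called, namely Apln (0.66), Pdgfb (0.09), Dll4 (-0.28), Angpt2 (-0.40) and Adm (-0.52). Esm1, Pgf and Kcne3 of this list had too few reads to be tested.

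Transcription factors of endothelial cells were mostly not called. Of 22 tested, 5 were lower and 1 was higher, with a median of -0.22 that was 0.14 with equal totals. Their share of lower calls, 22.7%, was near the 20.1% of all genes tested. Erg, an ETS factor of endothelial cells, fell from 98.1 ± 8.19 to 57.8 ± 14.5 normalized counts (SD, n = 4, log2 fold change -0.79, adjusted p = 0.00469, not called with equal totals). Ets2, another ETS factor, fell (-0.68, adjusted p = 0.000143), as did Epas1, the hypoxia factor HIF-2 alpha (-0.59, adjusted p = 0.0014, not called with equal totals). The other tested ETS factors of the list were not called. They were Fli1 (-0.05, adjusted p = 0.762), Ets1 (-0.07, adjusted p = 0.647) and Elk3 (-0.28, adjusted p = 0.187), all above 0 with equal totals. Etv2 had no reads. Lyl1, a factor of endothelial and blood cells, was higher (0.74, adjusted p = 0.0119).

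**Figure D4:**
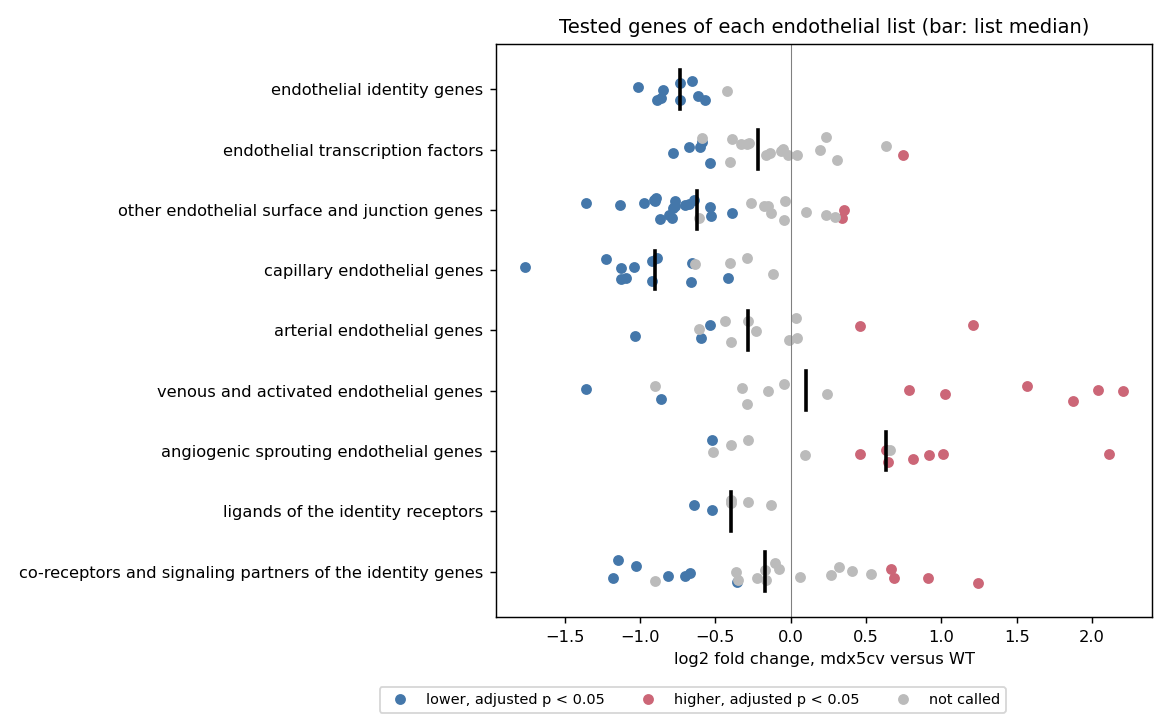
Log2 fold changes, mdx5cv versus WT (x axis), of the tested genes of each endothelial list (y axis), coloured by whether limma called them lower (blue), higher (red) or not at all (grey), with a black bar at each list's median. The bar lies at -0.73 for the 10 identity genes, at -0.90 for capillary genes and at 0.63 for sprouting genes; a gene in more than 1 list is drawn in each.

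Markers of other cells also differed between the groups, some lists mostly higher and some mostly lower, and their part in the falls was not tested. Macrophage markers were higher in 11 of 12, all but Cd163 (log2 fold change -1.49), and their summed level per kilobase was 276 to 412 in WT and 2463 to 5868 in mdx5cv. The 6 markers of regenerating fibers were all higher, summing to 32.9 to 42.3 in WT and 530 to 2013 in mdx5cv. Fibroblast markers were higher in 5 of 8, led by Col1a1 (3.13) and Col3a1 (3.09), with sums of 2790 to 4347 and 4136 to 5634. Pericyte and smooth muscle markers were lower in 6 of 11 (the most in Kcnj8, -0.99, and Lmod1, -0.91) and higher in 3 (the most in Acta2, 0.78, and Cspg4, 0.66), with sums of 2099 to 2367 and 1552 to 1795. With equal totals 3 of these were lower, without Lmod1, and 3 higher. Adult fiber markers were lower in 2 of 8, Ckm (-0.75) and Tnnt3 (-0.63, not called with equal totals), with sums of 435792 to 518241 and 319856 to 474008. This is 25% of the list, against 20.1% of all genes tested.

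For Vwf and Pecam1, which platelets also carry, the platelet list was checked. Only 2 of its 10 genes passed the filter. Pf4 was higher in mdx5cv (log2 fold change 1.92, adjusted p = 0.000737), and Itga2b was not called (0.81, adjusted p = 0.1075). Macrophage markers rose in the same muscles, and their part in the Pf4 rise was not tested. The defining genes Gp1ba, Gp1bb, Gp5, Gp6 and Gp9 had at most 3 reads in any muscle. The summed level of the list was 23.5 to 36.9 per kilobase in WT, 198 in mdx5cv muscle 4 and 68.7 to 75.2 in the other mdx5cv muscles. Erythrocyte markers, which track blood left in the tissue, were lower in 3 of 5, including Alas2 (-1.27) and Hbb-bs (-0.9996), with sums per kilobase of 884 to 1590 in WT and 443 to 936 in mdx5cv. Lymphatic markers were higher in 3 of 8 (the most in Pdpn, 2.001, and Ccl21a, 1.261) and lower in 1 (Stab2), with sums of 66.4 to 104 and 113 to 140.

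Summed levels of macrophage and endothelial genes are set side by side for the mdx5cv muscles. Muscles 4 and 1, with macrophage sums of 5868 and 3345 per kilobase, had sums of 435 and 426 over the 10 endothelial genes. Muscles 2 and 3, with macrophage sums of 2708 and 2463, had endothelial sums of 497 and 548. As a share of all reads, the 10 genes took 0.0217% in muscle 1, 0.0233% in muscle 2, 0.0257% in muscle 3 and 0.0249% in muscle 4. By this measure muscle 4, which had the largest size factor (1.25), was above muscle 2. With 4 muscles this is a description, and the part of either sum in the other was not tested.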

How the data were processed

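Whole TA muscles of 4 WT and 4 mdx5cv mice were compared, grouped by their labels. The labels describe Trizol extraction and stranded total RNA libraries. The authors deposited a signal per gene, the normalized count, which is reads divided by a size factor per muscle. The submitters' processing notes name FastQC, Trim Galore 0.6.4, STAR 2.6.0c, SAMtools 1.9, featureCounts, MultiQC 1.6, DESeq2 1.26.0, R 3.6.2 and mm10; the annotation and the strand setting are not given in the sources used here.

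Whole reads were recovered for 100% of values (tolerance 0.001). Groups were compared with limma 3.58.1 (R 4.3.3) on log2(normalized count + 1), using eBayes with a trend, for the 13677 genes with a mean of at least 10. edgeR 4.0.16 and DESeq2 1.42.0 on the recovered reads were alternatives, as were other scalings, pseudocounts of 0.1 and 10, filters, the replicate number as a block and each muscle left out. In simulated data limma recovered 61.5% of 200 genes given a log2 change of 0.8 over 13513 genes. Only these 200 genes were changed, whereas 2743 genes were called lower and 2854 higher here. The share recovered therefore need not hold for these data. Ratios were compared by exact permutation over 70 arrangements. Lengths are merged exons of GENCODE M21, in which 55141 gene IDs were found. Promoter windows are RefSeq sequences, trimmed to bases before both the RefSeq and the GENCODE start; that of Tie1, with 38 bases left, is not shown. Python 3.11.15, pandas 2.3.3 and scipy 1.17.1 were used.

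The members and lists were chosen with earlier results of these data known. The named genes are the 10 members, Dmd, up to 2 called genes per direction and the highest gene of each list, all tested ligands, and the 5 genes of mean at least 100 most like the members. The other sprouting genes, the other tested venous and activated genes, the other listed ETS factors and Itga2b are also named. A gene that this rule would name is not reported here.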

Additional observations from a re-analysis of the deposited data

Results flagged for a closer look

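In a group of 4 muscles, 4 of 66 sets of values had 1 muscle whose gap to the nearest other exceeded Dixon's 95% critical value for 4 samples, and chance gives about 3.3 of 66 (1 in 20). The log2 ratio of Tek to Tie1 in WT muscle 2 was 0.83, against -0.21 to -0.08 in the other WT muscles. The summed fibroblast markers in WT muscle 2 were 4347 normalized counts per kilobase, against 2790 to 2870. The summed venous and activated endothelial genes in mdx5cv muscle 4 were 2705 per kilobase, against 2003 to 2087. The summed platelet markers in mdx5cv muscle 4 were 198 per kilobase, against 68.7 to 75.2, and the same muscle had the highest macrophage sum.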

How the results depend on the processing

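Over 20 alternatives the 10 fold changes gave 200 values, all negative, of which 190 kept their side of the threshold, 7 lost a call and 3 gained one. Pecam1, Flt1, Tek and Vwf were called in all 21 fits, Cdh5, Kdr and Emcn in all but equal totals, and Cldn5 and Nos3 in all but both scalings to totals. Tie1 was called in 3, median centring (adjusted p = 0.026), edgeR (0.0455) and without WT muscle 2 (0.00267), and its adjusted p ranged from 0.00267 to 0.783. With equal totals 4 of the 10 genes were called lower, none at a log2 fold change of -1 or less (0), their median was -0.38, the other lists held 27 lower and 32 higher genes, and all genes 820 lower and 5444 higher (86.9% of calls higher, against 51.0% with the size factors). Without mitochondrial genes in the totals the median was -0.52, 1398 genes were lower and 74.8% of calls were higher, and again 0 of the 10 passed -1, as in edgeR, which called 2681 genes lower and 2869 higher where limma called 2743 and 2854. Both scalings shift all genes by construction. Leaving out 1 muscle at a time gave 9 to 10 lower genes, 0 to 1 at -1 or less (0 without mdx5cv muscle 1 or 4; without WT muscle 3 it was Cldn5, at -1.02, in place of Flt1), a median of -0.78 to -0.69, a Vwf to Emcn difference of -0.357 to 0.061 and a Nos3 to Cdh5 difference of -0.0263 to 0.158. The Tek to Tie1 difference ranged from -0.56 to -0.22, the last without WT muscle 2, that of Pecam1 to Cdh5 from -0.17 to -0.07, that of Cldn5 to Cdh5 from -0.45 to -0.11 and that of Kdr to Flt1 from 0.24 to 0.48. Muscles of the 2 groups share replicate numbers, but the deviations of same-numbered muscles correlated at 0.05, 0.03, 0.07 and 0.15, so the numbers are not taken as pairs. With the replicate block 9 of the 10 genes were called lower and 2736 genes in all, and the block changed the call of none of the 10. Depth limits Cldn5 (30 to 80 reads) and Emcn (81 to 172) most.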
